A study of Mus musculus with 4 samples.

Results

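The suppressor of cytokine signaling (SOCS) family was followed in ID4-EGFP+ spermatogonia of neonatal mice with and without the CCR4-NOT subunit *Cnot3*. Its members, *Socs1* to *Socs7* and *Cish*, were taken by gene symbol from the deposited read counts, and all 8 were found among the 54920 genes listed. The family itself was chosen by a result of these data, because *Socs2* had one of the smallest p-values of this comparison. Control mice were *Cnot3* flox/flox with the *Id4-eGfp* reporter and no Cre, and were labelled wild-type. *Cnot3*-cKO mice carried the same floxed alleles and reporter and, in addition, *Ddx4*-creER, a tamoxifen-inducible Cre driven by the germ cell gene *Ddx4*, so that other testis cells keep an intact *Cnot3*. Both groups had been injected with 4-OHT, the active form of tamoxifen, on postnatal days 1 to 3, and RNA of cells sorted for EGFP on day 8 was sequenced in 2 libraries per group.

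SOCS proteins are feedback inhibitors of cytokine and growth factor signaling. Cytokine receptors activate JAK kinases, which phosphorylate STAT transcription factors, and STATs switch on several SOCS genes, whose products then shut the receptor down. Each member joins an SH2 domain, which binds phosphotyrosine, to a SOCS box, which recruits elongins and cullin 5 to form a ubiquitin ligase. In the testis, spermatogonia depend on receptor tyrosine kinase and cytokine signals from somatic neighbours. CNOT3 is a subunit of CCR4-NOT, the main deadenylase that shortens poly(A) tails and starts mRNA decay.

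*Cnot3* was measured at 58.6 and 50.2 CPM (counts scaled to library size) in the 2 control libraries and at 19.2 and 19.9 CPM in the 2 *Cnot3*-cKO libraries, a log2 fold change of -1.48 (SE 0.13). Library totals ran from 22192964 to 43378493 reads, and both *Cnot3*-cKO libraries were the smaller ones. A gene was called when edgeR gave an adjusted p under 0.01 and a change of more than 2-fold. Of the 10 germ cell markers examined, only *Id4*, the gene whose reporter was used for sorting, was called, and it was higher. With no fold limit 5 of the 10 passed the adjusted p, since the stem cell marker *Gfra1* (93.3 and 174 CPM) and *Etv5* (88.8 and 129 CPM) were also higher, and *Zbtb16* (400 and 227 CPM) and *Sall4* (284 and 212 CPM) were lower. The summed level of all 10 was 4932 to 5211 CPM in controls and 4563 to 4788 CPM in *Cnot3*-cKO libraries. Markers of other testis cells were present and higher in *Cnot3*-cKO libraries. For Sertoli cells 11 of 12 markers were called higher (summed level 403 to 418 CPM in controls, 1206 to 1218 CPM in *Cnot3*-cKO), for macrophages 9 of 9 (189 to 295 and 534 to 653 CPM), and for Leydig cells 5 of the 6 that were tested (340 to 389 and 886 to 953 CPM, with the Leydig hormone gene *Insl3* at 0 reads in all 4 libraries). Endothelial markers (2 of 6 called higher, 31.8 to 33.3 and 44.6 to 53.6 CPM) and genes of the dissociation response (4 of 15, 149 to 154 and 228 to 269 CPM) were also higher in sum. None of the 6 peritubular myoid markers was called (13.9 to 16.5 and 20.4 to 25.7 CPM), and 1 of them passed at an unadjusted p under 0.05 and 0 by DESeq2. None of the 3 lymphocyte markers that were tested was called either (3.40 to 3.90 and 5.06 to 9.75 CPM), with 2 at an unadjusted p under 0.05 and 0 by DESeq2. The part of these cells in the values below was not tested. In sorted bulk samples, fewer cells of a type and less RNA per cell cannot be told apart.

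The members were expressed at very different levels in control cells. Per length, as CPM divided by the kilobases of exon (RPKM, mean ± SD, n = 2 per group throughout), *Socs7* was highest at 19.2 ± 0.811. *Socs4* followed at 8.05 ± 0.723 and *Socs6* at 7.15 ± 0.533, neighbours whose library values nearly met, at 7.54 for the lower *Socs4* library and 7.53 for the higher *Socs6* library. *Socs5* stood at 3.799, *Socs3* at 2.47, *Socs1* at 1.84, *Socs2* at 0.964 and *Cish* at 0.629 RPKM, and the library values of these 5 did not overlap between neighbours in the order. The 4 members with the higher levels, *Socs4* to *Socs7*, are the long ones with extended N-terminal regions (436 to 579 residues in the transcript models used). The small classical inhibitors of cytokine receptors, *Socs1* to *Socs3* and *Cish* (198 to 257 residues), had the lower levels. In *Cnot3*-cKO cells the order was *Socs7* (11.7), *Socs4* (6.24), *Socs6* (5.50), *Socs2* (5.12), *Socs5* (4.48), *Socs3* (2.76), *Socs1* (1.58) and *Cish* (0.660). *Socs2* thus moved from place 7 to place 4, where its library values of 5.09 and 5.15 overlapped those of *Socs6* at 5.14 and 5.86.

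**Figure D1:**
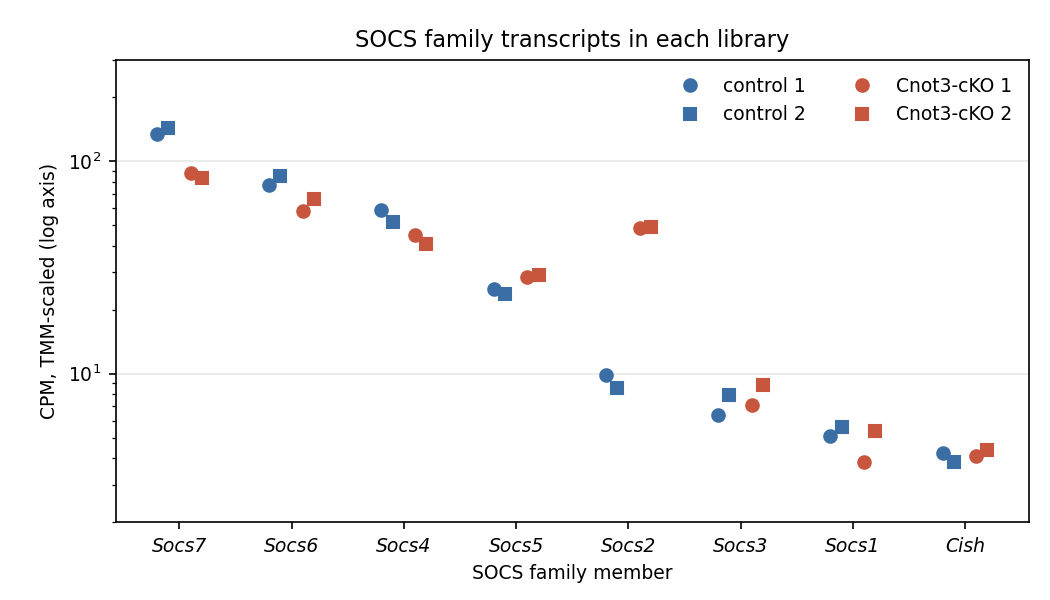
CPM on a log axis of each SOCS family member in each library, with blue points for the 2 control and red points for the 2 *Cnot3*-cKO libraries. Circles mark replicate 1 and squares replicate 2 of each group. *Socs2* lies near 9 CPM in both controls and near 49 CPM in both *Cnot3*-cKO libraries, while the points of *Socs1*, *Socs3* and *Cish* intermix.

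SOCS2 binds the growth hormone and prolactin receptors and limits STAT5 signaling, and mice that lack it grow larger than normal. *Socs2* lies on chr10:95385362-95417180 of GRCm38, on the minus strand, and encodes 198 residues in the transcript model used. It had 397 and 358 reads in the controls and 1099 and 1407 reads in the *Cnot3*-cKO libraries, although the latter held fewer reads in all. Scaled to library size, these were 9.86 and 8.51 CPM in controls, against 48.5 and 49.1 CPM after *Cnot3* deletion. Both *Cnot3*-cKO values were far above both controls, and the replicates of each group were close together (9.18 ± 0.953 and 48.8 ± 0.437 CPM). The log2 fold change was 2.41 (SE 0.14), or 5.32-fold. These values are given without a test, since *Socs2* was selected on its p-value in the same comparison. Selection on a small p favours a large change and close replicates. The place of *Socs2* by p, 13 of 23952 tested genes, describes that selection and is no separate result. By fold change it was at place 191 of them. Among the 15519 genes whose average CPM, as edgeR computes it, was 1 or more in log2, it was at place 13 by fold change. No other member stood near it in the same ordering by change, the next higher one being *Socs5* with a log2 fold change of 0.24. The summed Sertoli markers (403 to 418 CPM in controls, 1206 to 1218 CPM in the *Cnot3*-cKO libraries), Leydig markers (340 to 389 and 886 to 953 CPM) and macrophage markers (189 to 295 and 534 to 653 CPM) were higher in the same libraries as *Socs2*, and their part in its level was not tested.

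The share of *Socs2* in the family's summed expression was larger in *Cnot3*-cKO cells. Since this share rests on the *Socs2* values that chose the family, it is no separate result. In CPM, *Socs2* made up 3.07% and 2.58% of the 8 members' total in controls and 17.1% in each *Cnot3*-cKO library. Per exon length its share was 2.378% and 1.998% in controls, and per library 13.5% and 13.4% after *Cnot3* deletion. How large this share appears depends on the length used, because the union of all annotated *Socs2* exons is 9531 bases long and its representative transcript 2153 bases. With the transcript's length, an alternative chosen after seeing the data, its share was 8.14% and 6.86% in controls, and 35.8% and 35.3% after *Cnot3* deletion, and *Socs2* moved from place 5 to place 1 of the family. The sum of the other 7 members was lower in *Cnot3*-cKO cells on each scale, with 312 and 322 CPM in controls against 235 and 238 CPM.

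**Figure D2:**
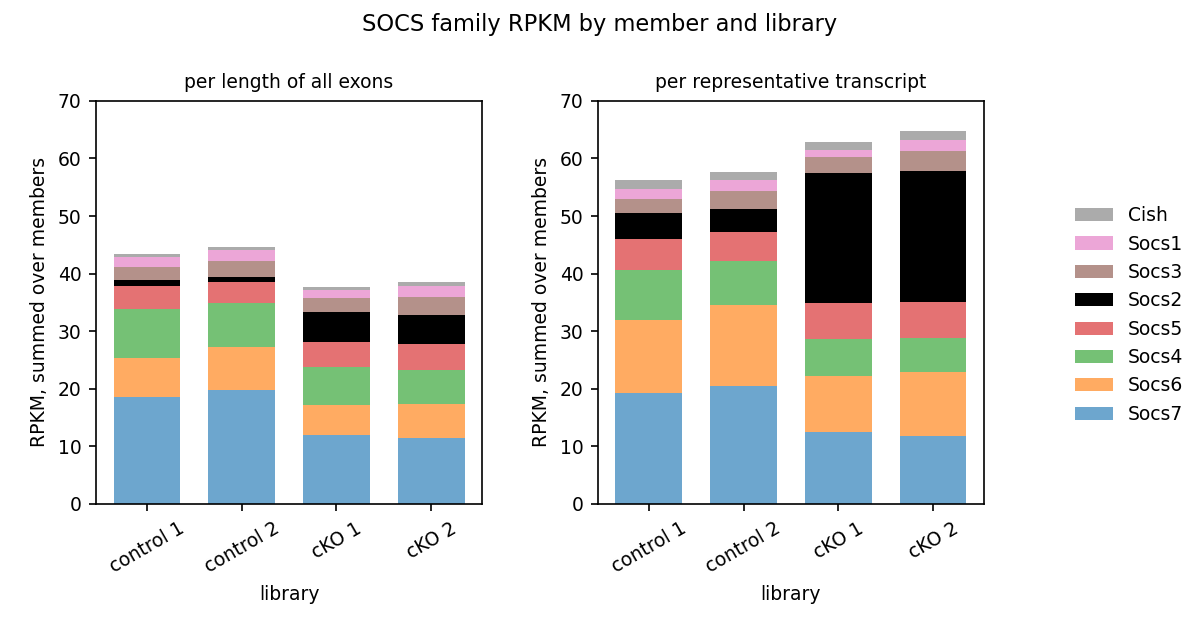
Stacked RPKM of the 8 SOCS family members in each library, with 1 bar per library and 1 colour per gene. The left panel is per kilobase of all exons and the right panel per kilobase of the representative transcript. In the left panel the *Socs2* segment is 2.378% and 1.998% of the control bars and 13.5% and 13.4% of the *Cnot3*-cKO bars. These segments rest on the *Socs2* values that chose the family. The *Socs7* segment is the largest in every bar of that panel. In the right panel *Socs7* is the largest segment of the control bars, and *Socs2* is the largest of the *Cnot3*-cKO bars (35.8% and 35.3%).

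The genes whose pattern over the 4 libraries was most like that of *Socs2* were found by the Euclidean distance of centred log2 CPM. The search covered the 15519 genes whose average CPM, as edgeR computes it, was 1 or more in log2. The nearest were *Plppr4* (distance 0.058), *Ccn1* (0.103), *Rgs7* (0.122), *Dhh* (0.199) and *Map3k21* (0.217). *Plppr4* was at 2.82 CPM in controls, against 14.9 CPM after *Cnot3* deletion, *Ccn1* at 2.46 and 13.7 CPM, and *Map3k21* at 11.9 and 57.7 CPM. *Rgs7* was lower in level, at 0.645 and 3.57 CPM, and reached the limit on average CPM only through its *Cnot3*-cKO level. *Dhh*, a Sertoli cell ligand that is also on the Sertoli marker list, was at 4.17 and 21.8 CPM. These 5 genes were picked for their likeness, so their changes carry no further test.

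*Cish*, whose product CIS is the closest relative of SOCS2 and is a classical STAT5 target, showed no detectable difference. It had 4.25 and 3.83 CPM in controls, against 4.10 and 4.36 CPM after *Cnot3* deletion. The groups overlapped at 93 to 171 reads per library, with a log2 fold change of 0.07 (95% interval -0.47 to 0.61, adjusted p = 0.888). Changes within that interval are compatible with these counts. *Cish*, on chr9:107296026-107302784, plus strand, shares exon bases with *Gm17040* and *Gm17041* on the opposite strand. These had 2 to 5 and 0 reads per library, and the strand setting of the counting is not given in the sources used here.

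SOCS1 and SOCS3 are the members that block JAK kinases directly through a kinase inhibitory region. SOCS1 acts mainly on interferon signaling and SOCS3 on receptors that use gp130, the product of *Il6st*. *Socs1* had 5.09 and 5.63 CPM in controls, against 3.84 and 5.38 CPM after *Cnot3* deletion, with 87 reads in the thinnest library. The second *Cnot3*-cKO value lay between the controls, and the log2 fold change was -0.21 (95% interval -0.76 to 0.33, adjusted p = 0.622). *Socs3* had 6.41 and 7.89 CPM in controls, against 7.11 and 8.83 CPM after *Cnot3* deletion. Its groups overlapped as well, with a log2 fold change of 0.16 (95% interval -0.32 to 0.63, adjusted p = 0.677). For both genes the difference was within the spread between libraries.

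STAT proteins bind the palindrome TTCNNNGAA, which reads the same on both strands. RefSeq promoter windows of 250 bases before to 50 bases after the gene start, on GRCm38.p6, were matched for 4 of the 8 members, *Cish*, *Socs1*, *Socs3* and *Socs4*. The motif occurred in 8.30% of 32851 such windows. It was found 2 times in the *Cish* window, starting at bases 1 and 12 counted from the RefSeq gene start, so not upstream of it. In the *Socs3* window it was found once, 154 bases upstream of the RefSeq gene start. It was not among the letters of the *Socs1* and *Socs4* windows. The matches are shown, with the motif in capitals, because these are the classical STAT-responsive members whose levels did not differ detectably here. The *Cish* stretch is chr9:107296639-107296698 (plus strand) and the *Socs3* stretch chr11:117969492-117969540 (minus strand). The GENCODE records of these genes start further upstream, at chr9:107296026 for *Cish* and chr11:117970047 for *Socs3*. By those records, both stretches lie inside the gene.
Cish promoter: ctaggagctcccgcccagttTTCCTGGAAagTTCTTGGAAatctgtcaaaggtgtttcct
Socs3 promoter: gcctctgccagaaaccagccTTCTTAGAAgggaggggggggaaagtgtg

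SOCS4 and SOCS5 are close relatives that have been tied to the epidermal growth factor receptor. *Socs4* (chr14:47276931-47296102, plus strand) had 58.9 and 51.9 CPM in controls, against 45.1 and 40.7 CPM after *Cnot3* deletion. Both *Cnot3*-cKO values were below both controls, with a log2 fold change of -0.37 (SE 0.12) that did not reach the threshold of 0.01 (adjusted p = 0.0409). Over the alternatives the *Socs4* log2 fold change ran from -0.47 to -0.25, and whether it passed 0.01 depended on the processing. *Socs5* (chr17:87107679-87137839, plus strand) had 24.9 and 23.8 CPM in controls, against 28.51 and 29.01 CPM after *Cnot3* deletion. Here both *Cnot3*-cKO values were above both controls, and the log2 fold change of 0.24 (SE 0.13, adjusted p = 0.232) did not pass either. The fitted values of this related pair thus lay on opposite sides of 0.

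SOCS6 and SOCS7 have been linked to insulin receptor and IRS signaling, and SOCS6 also binds the stem cell factor receptor KIT. *Socs7* (chr11:97362551-97398542, plus strand) had 135 and 143 CPM in controls, against 87.6 and 83.1 CPM after *Cnot3* deletion. Both *Cnot3*-cKO values were well below both controls. Its log2 fold change of -0.71 (SE 0.091, 0.613 of the control level, adjusted p = 0.000239) passed the adjusted p threshold but not the fold limit of 2 that a call also required. *Socs6*, the next of the pair, had 76.9 and 85.5 CPM in controls, against 58.4 and 66.5 CPM after *Cnot3* deletion. Its groups did not overlap, and its log2 fold change of -0.38 (SE 0.11, adjusted p = 0.0258) was short of the threshold. Over the alternatives the *Socs6* log2 fold change ran from -0.48 to -0.26, always under 2-fold, and whether it passed 0.01 depended on the processing. Its adjusted p was 0.00916 with DESeq2 and 0.00345 by edgeR with no filter. By edgeR it was 0.0548 with library size only and 0.107 with germ cell marker scaling.

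**Figure D3:**
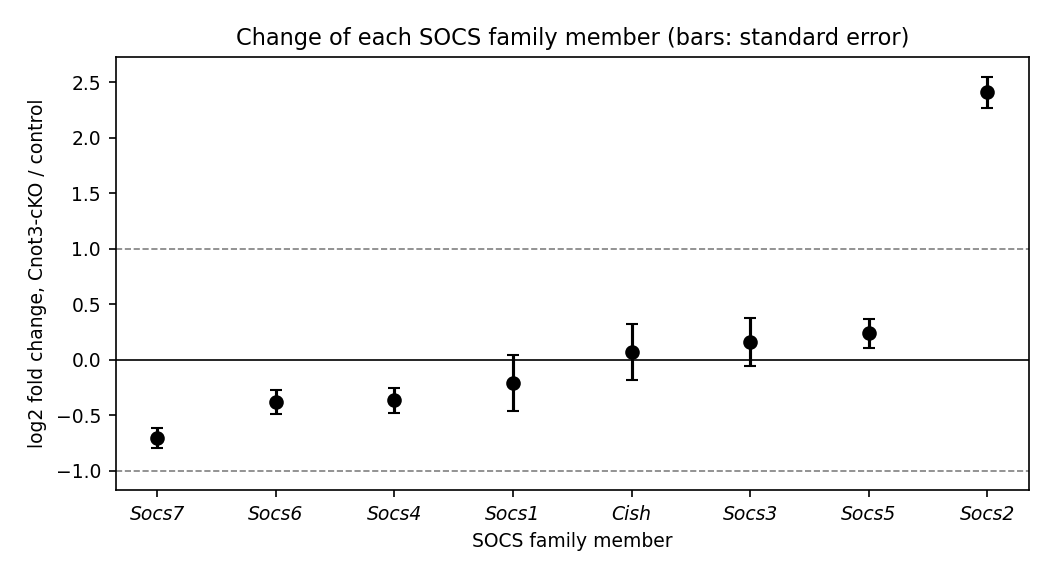
Log2 fold change of each SOCS family member, *Cnot3*-cKO over control, with points for the fitted value and bars for ± 1 SE, over 2 libraries per group. *Socs2* at 2.41 lies beyond the dashed lines at a fold change of 2, and *Socs7* at -0.71 is the lowest of the others.

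Counted over the family, 1 of 8 members was called higher (adjusted p under 0.01 and more than 2-fold), *Socs2*, beside 4.03% of all tested genes, and 0 were called lower, beside 0.735%. Since *Socs2* chose the family, nothing can be read from the first count. By edgeR, 3 members were lower at an unadjusted p under 0.05 (*Socs4*, *Socs6* and *Socs7*), as were 15.4% of all tested genes, while 17.4% of them were higher. DESeq2 also called 0 members lower. With no fold limit 1 member was higher (all genes 6.21%) and 1 was lower (all genes 4.70%). For 2 of 8 members both *Cnot3*-cKO values exceeded both control values (all genes 30.5%), and for 3 of 8 both were lower (all genes 28.6%). The median log2 fold change of the members was -0.07 and that of all tested genes 0.01. With germ cell marker scaling in place of the trimmed mean of M-values (TMM), the median of all genes moved to 0.13, and *Socs7* was at -0.59, *Socs6* at -0.26, *Socs4* at -0.25 and *Socs5* at 0.35. All 8 members passed the filter on low counts. An exact two-sided permutation test of 2 against 2 libraries cannot go below p = 0.333, so tests here come from the edgeR fit over all genes. The p-values of that fit weigh a change against the spread between these libraries, estimated with information shared between genes. Whether the libraries came from separate animals is not given by the labels. The paper's legend for this RNA-seq speaks of 3 biological replicates, while 2 libraries per group were used here.

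CCR4-NOT is brought to many mRNAs through elements in the 3′ untranslated region (UTR). Among the best known are AU-rich elements, with ATTTA and the longer TATTTAT as their DNA letters, and TGTANATA, which Pumilio proteins bind. These letters were searched on the transcript strand of 1 representative transcript per gene (GENCODE M21, GRCm38). TATTTAT was found in 5 of 8 members and in 27.0% of 15775 tested genes with a coding model, TGTANATA in 3 of 8 and 23.8%, and ATTTA, which every TATTTAT contains, in 7 of 8 and 64.9%. The members' UTRs ranged from 1087 bases in *Cish* to 5184 bases in *Socs7*, all above the median of 956 bases for those genes, and a longer UTR holds more such letters.

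*Socs2* had 1 TATTTAT in a UTR of 1163 bases. *Cish* had 3 that overlap each other in 1087 bases, *Socs3* 2 that overlap in 1474 bases, and *Socs4* and *Socs5* 1 each in 5182 and 2595 bases. *Socs5*, *Socs6* and *Socs7* each held 1 TGTANATA, and *Socs1* had neither motif nor an ATTTA in 1993 bases. Whether these letters have a part in the members' levels was not tested. The windows are shown, with the motif in capitals and the first copy only for *Socs3* and *Cish*, so that the *Socs2* element can be set beside those of the other members. A match is a description of letters, not evidence of binding.
Socs2 3′ UTR position 574: catgcttgTATTTATccctcgtc
Socs3 3′ UTR position 1397: tgcacataTATTTATatttatac
Socs4 3′ UTR position 2618: aaactaagTATTTATatgaaagt
Socs5 3′ UTR position 858: gatgacagTATTTATctctttgt
Cish 3′ UTR position 484: ttatacagTATTTATttatttat
Socs5 3′ UTR position 997: atgctgccTGTAAATAactttact
Socs7 3′ UTR position 4959: ggggtgtcTGTAAATActgtacta

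Around the family, 174 genes of the JAK-STAT and SOCS box system were placed on 9 lists, members left out. Of the 139 that were tested, 16 were called higher and 3 lower, beside 4.03% and 0.735% of all tested genes, and their median log2 fold change was 0.07, beside 0.01 for all genes. These shares of all genes, and 17.4% higher and 15.4% lower at an unadjusted p under 0.05, are the background for each list below. The kinases and most STATs were not called. *Jak1* was at 329 CPM in controls, against 356 CPM after *Cnot3* deletion, and *Jak2* at 114 and 102 CPM, and 0 of 4 JAK kinases were called by edgeR or DESeq2, with 1 lower at an unadjusted p under 0.05 (median -0.26). Of 7 STAT factors (median 0.36), 1 was called, *Stat6*, which acts downstream of interleukin 4. It rose from 11.05 and 9.77 CPM in controls to 27.2 and 22.2 CPM (log2 fold change 1.24, SE 0.17, adjusted p = 0.000328). *Stat3* was at 86.2 and 92.1 CPM. The STAT5 proteins, which SOCS2 and CIS restrain, were not called, with *Stat5b* at 33.5 and 43.2 CPM (adjusted p = 0.0540) and *Stat5a*, named after its values were seen, at 20.4 and 20.6 CPM in controls, against 27.5 and 28.3 CPM after *Cnot3* deletion (adjusted p = 0.0333).

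Among the 34 tested of 41 cytokine receptors, 5 were called higher and 1 lower (median 0.21). *Prlr*, the prolactin receptor and a target of SOCS2, rose from 7.87 and 4.66 CPM in controls to 20.3 and 24.2 CPM (log2 fold change 1.83, SE 0.23, adjusted p = 0.000214). The growth hormone receptor *Ghr*, named after its values were seen, was at 7.37 and 6.99 CPM in controls, against 4.02 and 6.46 CPM after *Cnot3* deletion, and was not called (log2 fold change -0.45, adjusted p = 0.251). Of the other receptors called higher, *Csf2rb*, the shared β chain for granulocyte-macrophage colony-stimulating factor, rose from 1.77 to 6.31 CPM. *Il10ra* rose from 8.41 to 19.6 CPM, *Il10rb* from 4.81 to 10.3 CPM and the interferon receptor chain *Ifnar2* from 4.43 to 11.5 CPM. *Il20ra* fell from 2.04 to 0.378 CPM, at low counts of 67 and 102 reads in controls and 10 and 9 reads in *Cnot3*-cKO libraries. The abundant receptor chains *Ifnar1* (184 and 163 CPM) and *Il6st* (141 and 125 CPM) were not called. Macrophage markers (9 of 9 higher), Sertoli markers (11 of 12) and Leydig markers (5 of 6) moved with these receptors, and their part was not tested.

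Of 31 cytokine ligands, 9 passed the filter and 0 were called by edgeR or DESeq2, with 4 higher at an unadjusted p under 0.05 (median 0.39). *Clcf1*, a ligand of the interleukin 6 family, was at 4.44 and 4.71 CPM. Receptor tyrosine kinases and their IRS adaptors split in direction, with 4 of 12 higher and 2 lower (median 0.48). *Kit*, the receptor of differentiating spermatogonia and a partner of SOCS6, fell from 255 and 277 CPM to 119 and 138 CPM (log2 fold change -1.05, SE 0.094, adjusted p = 1.70e-05). *Fgfr1*, a receptor for fibroblast growth factors, fell from 50.8 and 50.7 CPM to 17.96 and 16.97 CPM (log2 fold change -1.54, SE 0.12, adjusted p = 7.89e-06). The insulin receptor *Insr* rose from 15.6 to 32.3 CPM, and the insulin receptor substrates *Irs1* and *Irs4* from 5.71 to 12.1 and from 7.93 to 16.0 CPM. *Csf1r*, which is also on the macrophage list, rose from 33.0 to 76.7 CPM. *Igf1r*, the most abundant of the list, was at 446 and 280 CPM and passed the adjusted p (0.000160) without reaching 2-fold, and *Met* was at 83.0 and 53.9 CPM.

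The ligase parts that a SOCS box recruits were not called in either direction. Of 10 tested, 0 were called by edgeR or DESeq2, 3 were lower at an unadjusted p under 0.05, and the median was -0.16. *Cul5* was at 226 and 223 CPM and *Ube2d3*, a ubiquitin-conjugating enzyme, at 326 and 366 CPM. Of 15 other inhibitors of JAK-STAT signaling (median -0.16), 2 were called, the blood cell phosphatases *Ptpn6* (3.64 to 11.1 CPM) and *Ptprc* (5.79 to 17.6 CPM), both higher. *Pias2* (254 and 216 CPM) and *Cbl* (172 and 147 CPM) were not called.

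STAT target genes were listed as genes downstream of the pathway that SOCS proteins restrain. Of 25 tested, 4 were called higher and 0 lower, with 10 higher and 4 lower at an unadjusted p under 0.05 by edgeR, 0 called lower by DESeq2 and a median of 0.18. *Igf1*, the classical growth hormone target, rose from 22.4 to 46.7 CPM, and the interferon-induced GTPase gene *Gbp3* from 16.2 to 48.0 CPM (log2 fold change 1.56, adjusted p = 1.65e-05). *Fos* (15.3 to 40.6 CPM) and *Junb* (0.656 to 3.21 CPM), both immediate early genes that are also on the dissociation list, rose as well. Sertoli markers (11 of 12), macrophage markers (9 of 9) and Leydig markers (5 of 6) were called higher in the same libraries. Their part in the levels of these targets was not tested. *Ccnd2* (178 and 214 CPM) and *Mcl1* (136 and 154 CPM) were not called. *Bcl6* and *Pim1*, a repressed and an induced STAT5 target named after their values were seen, had log2 fold changes of -0.85 (adjusted p = 0.00587, under 2-fold) and -0.19.

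**Figure D4:**
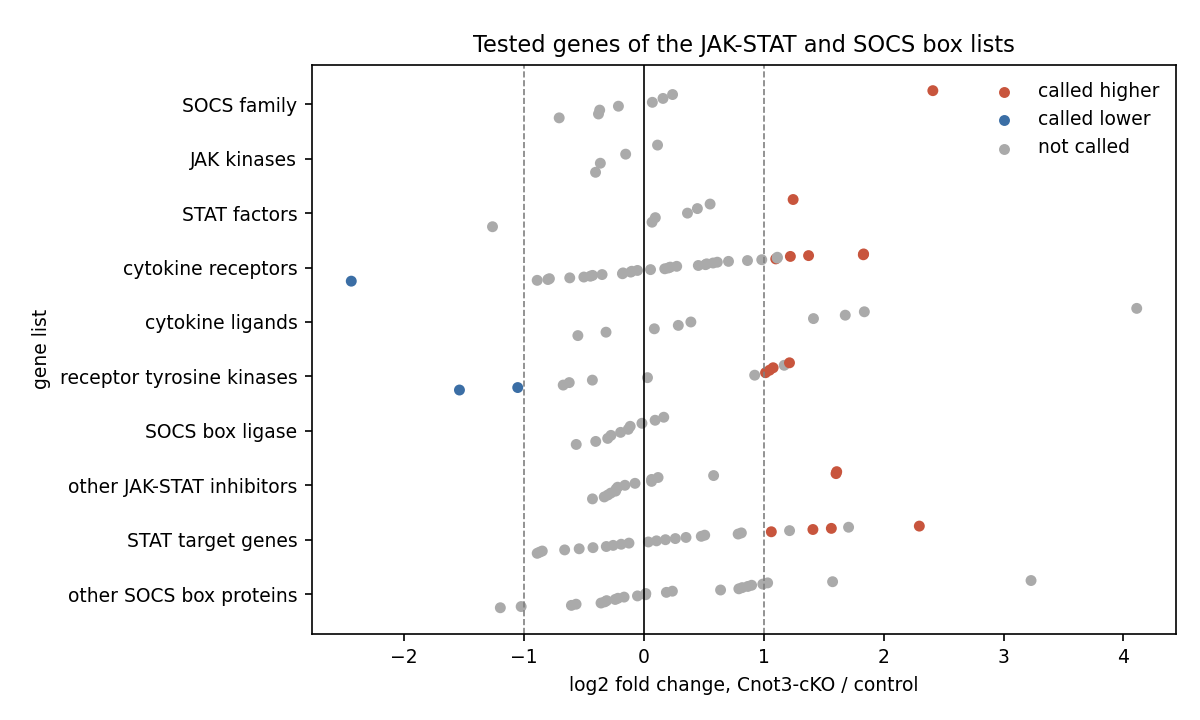
Log2 fold change, *Cnot3*-cKO over control, of every tested gene of the SOCS family and of 9 lists of the JAK-STAT and SOCS box system, with 1 point per gene, spread within a row in order of its value. Colours mark genes called higher or lower and dashed lines a fold change of 2. Called genes lie among the STATs, receptors, receptor tyrosine kinases, inhibitors and targets, and none lies among the kinases, ligands, ligase parts or other SOCS box proteins.

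Of the 19 genes called in these lists, 10 were called under every alternative but the stricter test against a 2-fold change, and in all 4 fits that left out a library. They were *Stat6*, *Prlr*, *Csf2rb*, *Ifnar2*, *Il10ra*, *Fgfr1*, *Ptpn6*, *Ptprc*, *Fos* and *Gbp3*. Most of the other calls were lost by dropping under 2-fold. *Kit* was at -0.96 without *Cnot3*-cKO replicate 1, and its call was also lost with library size and germ cell marker scaling. Without control replicate 2, the log2 fold changes were 0.94 for *Il10rb*, 0.90 for *Csf1r*, 0.88 for *Insr*, 0.74 for *Irs4*, 0.73 for *Igf1* and -2.15 for *Il20ra* (adjusted p = 0.0243), none of them called. Without *Cnot3*-cKO replicate 2, *Irs4* was at 0.97, *Igf1* at 0.97, *Irs1* at 0.996 and *Junb* at 1.62 (adjusted p = 0.0353). *Il10rb* also lost its call without *Cnot3*-cKO replicate 1 (0.84, adjusted p = 0.0361), *Irs1* without control replicate 1 (0.96) and *Irs4* with DESeq2 and with no filter (0.99). *Csf1r* lost it with robust dispersions as well (adjusted p = 0.0136).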

How the data were processed

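RNA-seq of sorted ID4-EGFP+ cells gave 4 libraries, 2 per group, made with a stranded total RNA kit. Per the submitters' notes, the authors used STAR for alignment, mm10 as the genome and featureCounts for the counting. The deposited values are whole-number read counts per gene symbol, not normalized, 1 file per library. The strand and multi-mapping settings of the counting are not given in the sources used here.

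From these counts, edgeR 4.0.16 (R 4.3.3) with TMM scaling, filterByExpr (23952 genes kept) and the quasi-likelihood test compared the groups, with Benjamini-Hochberg adjustment over all tested genes. A call required a change of more than 2-fold at an adjusted p under 0.01. DESeq2 1.42.0, other scalings, filters and thresholds, a replicate block and fits without each library were the alternatives. The biological coefficient of variation was 0.145. CPM use TMM-scaled library sizes, and RPKM divide them by the length of all exons of a gene in GENCODE M21 (GRCm38). The code was tested on simulated counts. Figures were drawn with matplotlib 3.10.9.

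The members and all lists were chosen with earlier results of these data known. Named genes are all members and *Cnot3*, every called gene and the 2 most abundant uncalled genes of each pathway list, and the 5 genes nearest to *Socs2*. *Stat5a*, *Ghr*, *Bcl6*, *Pim1*, *Rnf7*, *Elob*, *Eloc*, *Gfra1*, *Etv5*, *Zbtb16* and *Sall4* were added after their values were seen. A gene that the naming rule covers is not reported here. No sequence of *Socs6* is printed.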

Additional observations from a re-analysis of the deposited data

How the results depend on the processing

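*Socs2* kept its direction under every alternative, with log2 fold changes of 2.30 to 2.52. The number of members called was 1 under all but 1 alternative and 2 with no fold change limit, where *Socs7* was added. The alternatives refit the counts from which *Socs2* was chosen, so they add no support for its change. Without each library in turn, *Socs7* ran from -0.76 to -0.67, *Socs3* from -0.01 to 0.31 and *Cish* from -0.01 to 0.13. The signs of the last 2 turned without *Cnot3*-cKO replicate 2 (*Socs3*, -0.014) and without control replicate 2 (*Cish*, -0.014). Over all genes, 965 were called higher and 176 lower. Lower calls were 110 with germ cell marker scaling and 285 with no filter. The test against a 2-fold change left 87 higher and 5 lower calls, and 0 and 0 in the pathway lists, in place of 16 and 3. An adjusted p under 0.05 gave 1452 higher and 284 lower, and no fold limit 1488 higher and 1125 lower, with 9 lower in the pathway lists. Leaving out each library gave 943 to 1225 higher and 217 to 271 lower calls, the latter without *Cnot3*-cKO replicate 2. The replicate block gave 1155 higher and 217 lower calls, 18 and 3 pathway calls and 1 member. Whether libraries of the same number were paired is not given by the labels. The deviations of the libraries numbered 1 correlated at 0.0642 over 16437 genes, which cannot decide this with 2 libraries per group. *Cul5*, close to 0, turned to 0.025 with upper quartile scaling, 0.050 with library size, 0.10 with germ cell markers and 0.016 with a mean count of at least 50, and ran from -0.14 to 0.088 without each library, as did *Elob* from -0.76 to 0.047, *Stat3* from -0.010 to 0.18 and *Clcf1* from -0.013 to 0.17. *Eloc* turned to 0.0039 with germ cell markers. Of 811 values of single genes, 11 reversed, 39 lost the call and 1 gained it. What causes them was not tested. The order of members by level also depends on length, with *Socs2* at place 7 in controls per exon length and at place 5 by CPM or per representative transcript.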

Other observations

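Many proteins outside the family carry a SOCS box, among them the ASB and WSB proteins, which use it to send other targets to the same ligases. Of 28 such genes 24 were tested, and 0 were called by edgeR or DESeq2, with 6 higher and 7 lower at an unadjusted p under 0.05 and a median log2 fold change of 0.02. The most abundant, *Wsb1*, was at 212 CPM in controls against 165 CPM after *Cnot3* deletion (log2 fold change -0.36, adjusted p just over 0.01), and *Wsb2* was at 70.1 and 59.4 CPM. Of the ligase parts, *Rnf7*, the RING partner of cullin 5 and named after its values were seen, had a log2 fold change of -0.56 (adjusted p = 0.00243, under 2-fold).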
